A study of Rattus norvegicus with 6 samples.

Results

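The renin-angiotensin system was examined in hippocampal tissue of old rats exposed to sevoflurane, an inhaled anesthetic. Of the 8 genes chosen, Agtrap, Agt, Agtr1a, Agtr2, Ace, Mas1, Atp6ap2 and Lnpep, 7 had a probe set that named no other gene, out of 22093 genes with such a probe set. Ace, the angiotensin-converting enzyme, was named only on a probe set that it shared with Ace3, and no value is given for it. Lnpep had a pair of probe sets, and the one with the higher mean over the 6 arrays stood for it. The choice of probe set used the level over all arrays and not the difference between groups. Agtrap, however, is one of the genes the study picked on these same arrays. The study took such genes from those that differed after sevoflurane, by functional annotation and by correlation with long noncoding RNAs. The values of Agtrap are therefore given as a description without a test.

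All animals were male Sprague-Dawley rats, 18 months old and weighing 550 to 600 g, with no genetic change. The 3 rats of the sevoflurane group breathed 100% oxygen with 2.5% sevoflurane, and the 3 control rats breathed 100% oxygen alone, for 4 h in either case. The hippocampus was taken 3 h after the exposure. Its RNA was hybridised to 1 Clariom D Pico array per rat, where several probes form a set that reads one transcript, and the deposited values are normalized levels on a log2 scale. Because each tissue is a mixture, fewer cells of a type and less RNA per cell cannot be told apart. Levels of different genes are not set against each other, since each probe set has its own affinity.

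In the classical pathway, angiotensinogen (Agt) is cut to angiotensin I, which the converting enzyme Ace trims to angiotensin II. Angiotensin II acts on the AT1 receptor (Agtr1a and Agtr1b in rodents) and on the AT2 receptor (Agtr2), while a shorter peptide acts on Mas1. In the brain, angiotensinogen is made mainly by astrocytes. Agtrap, the AT1 receptor-associated protein, binds the tail of the AT1 receptor and promotes its internalisation. Atp6ap2 is a membrane protein and an accessory subunit of the vacuolar proton pump. Lnpep is an insulin-regulated aminopeptidase that binds angiotensin IV.

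The sequences upstream of Agtrap, the gene that named the set, and of Agtr1a, the receptor whose tail its protein binds, are shown as the 250 bases before the start of the gene. They come from the set of RefSeq promoters used here (build GRCr8), in which 7 of the 8 genes had an entry and Agt had none. The Agtrap sequence lies at chr5:163802175-163802424 and that of Agtr1a at chr17:34435433-34435682, both on the minus strand. Capitals mark every match, on either strand, to 6 short motifs. They are ACGTG and a version that starts with another base, GCGTG, both of them cores of the hypoxia response element. The others are the E-box, spelled CACGTG and so containing the former core, then the CCAAT box, then the GC box, which is spelled GGGCGG, and last the TATA box, which is spelled TATAAA.
Agtrap: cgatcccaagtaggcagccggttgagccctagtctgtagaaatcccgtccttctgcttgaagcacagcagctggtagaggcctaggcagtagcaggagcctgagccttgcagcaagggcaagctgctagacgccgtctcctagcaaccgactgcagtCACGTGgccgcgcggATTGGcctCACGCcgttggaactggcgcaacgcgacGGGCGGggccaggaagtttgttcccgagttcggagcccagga
Agtr1a: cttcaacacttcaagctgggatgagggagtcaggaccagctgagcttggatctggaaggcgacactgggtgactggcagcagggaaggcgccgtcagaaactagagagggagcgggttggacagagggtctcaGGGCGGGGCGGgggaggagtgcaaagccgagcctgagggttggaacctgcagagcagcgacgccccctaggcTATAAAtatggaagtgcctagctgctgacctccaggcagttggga
The Agtrap sequence held a match to each of these motifs other than the TATA box. Its E-box began 93 bases before the start, the second form of the hypoxia core was on the opposite strand from 70 bases, the CCAAT box was on the opposite strand from 78 bases, and the GC box began at 42 bases. The Agtr1a sequence held the TATA box from 45 bases before the start and overlapping GC boxes from 117 and 112 bases. Among all 33469 upstream sequences of this length, 16.6% held the hypoxia core in its first form, 25.9% held it in its second form, 5.59% held the E-box, 34.0% the CCAAT box, 30.5% the GC box and 12.9% the TATA box. Of the 7 genes with an entry, only Agtrap held the E-box. A match is a run of letters and not a measured binding site.

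Agtrap was at 7.12, 7.27 and 7.11 on control replicates 1, 2 and 3 and at 7.53, 7.50 and 7.40 on the sevoflurane replicates (normalized levels, log2). Every sevoflurane array lay above every control array. The mean was 7.17 ± 0.09 (SD, n = 3) in controls against 7.48 ± 0.07 (SD, n = 3) in the sevoflurane group, a difference of 0.31 on the log2 scale or 1.24-fold. The difference was between 0.28 and 0.36 with any 1 array left out.

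Agt, the only known source of angiotensin peptides, was at 7.42, 7.47 and 7.52 on control replicates 1, 2 and 3. On the sevoflurane replicates it was at 7.80, 7.84 and 7.62. The groups did not overlap, and the nearest values were those of sevoflurane replicate 3 and control replicate 3. The means were 7.75 ± 0.12 (SD, n = 3) and 7.47 ± 0.05 (SD, n = 3), and the log2 difference was 0.28 with a standard error of 0.110 (95% interval 0.03 to 0.54, 1.22-fold). The unadjusted p from limma was 0.0311, the adjusted p over all probe sets was 1, and the exact permutation p was 0.1, the smallest that 3 arrays against 3 can give. At an unadjusted p under 0.05 Agt did not pass when control replicate 1 (unadjusted p = 0.0943 from limma), control replicate 2 (unadjusted p = 0.0778), control replicate 3 (unadjusted p = 0.0651) or sevoflurane replicate 2 (unadjusted p = 0.114) was left out, although its log2 difference stayed between 0.24 and 0.35.

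**Figure D1:**
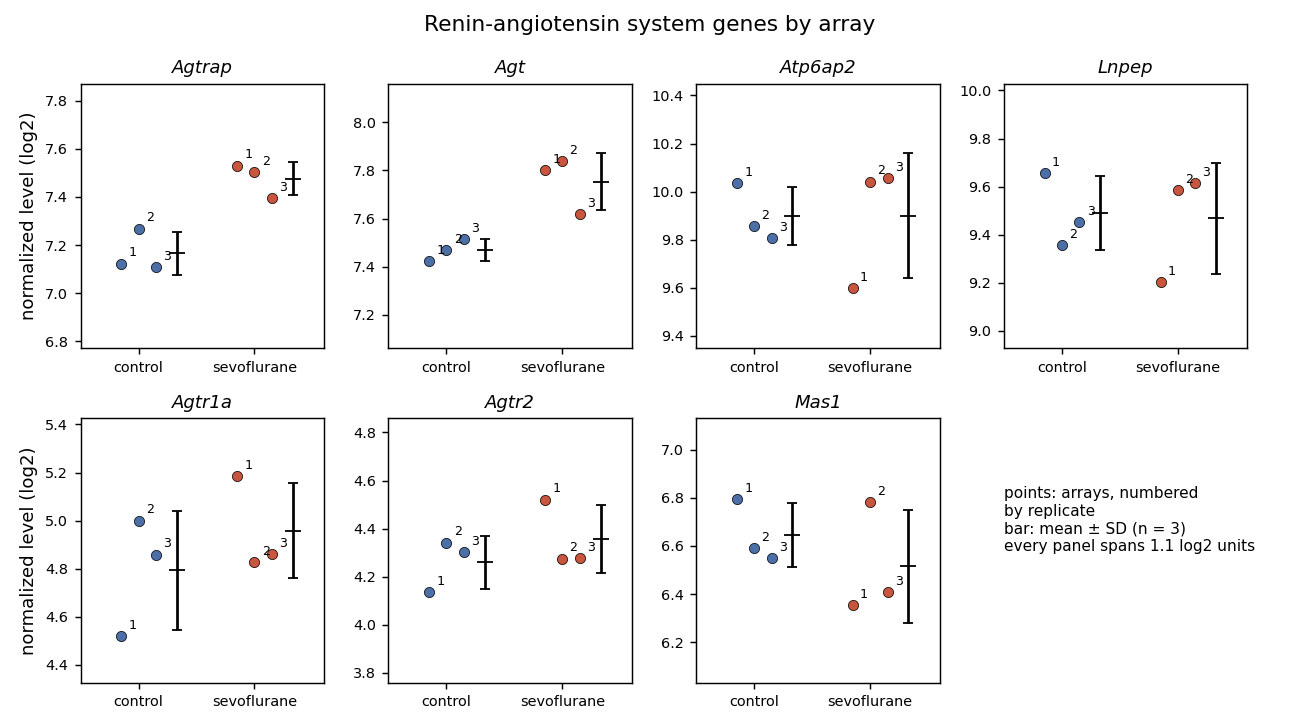
Normalized level (log2, y axis) of 7 genes of the renin-angiotensin system in the control and sevoflurane groups. Points are arrays numbered by replicate and bars are the mean ± SD (n = 3). The groups are apart for Agtrap (7.11 to 7.27 against 7.40 to 7.53) and Agt (7.42 to 7.52 against 7.62 to 7.84), and overlap in the other 5 panels.

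The peptide receptors did not pass the test. Agtr1a was at 4.52, 5.0 and 4.86 on the control replicates and at 5.18, 4.83 and 4.86 on the sevoflurane replicates. Both the lowest value, on control replicate 1, and the highest, on sevoflurane replicate 1, were single arrays, and the others lay together. The log2 difference was 0.17 (95% interval -0.20 to 0.53, unadjusted p = 0.328 from limma) and fell to 0.05 without sevoflurane replicate 1 and to 0.03 without control replicate 1. Agtr2 was at 4.13, 4.34 and 4.30 in controls and at 4.52, 4.28 and 4.28 after sevoflurane, with a log2 difference of 0.10 (95% interval -0.18 to 0.37, unadjusted p = 0.439 from limma) that was 0.016 without sevoflurane replicate 1 and 0.036 without control replicate 1. It too was highest on sevoflurane replicate 1, and the other sevoflurane arrays lay within the range of the controls. Mas1 was at 6.80, 6.59 and 6.55 in controls and at 6.35, 6.78 and 6.41 after sevoflurane. Sevoflurane replicate 2 lay within the control range and the other sevoflurane arrays below it, and the log2 difference was -0.13 (95% interval -0.46 to 0.20, unadjusted p = 0.392 from limma). With 1 array left out it ranged from -0.26, without sevoflurane replicate 2 (unadjusted p = 0.0984 from limma), to -0.05, without sevoflurane replicate 1, with -0.055 when control replicate 1 and -0.076 when sevoflurane replicate 3 was left out. Agtr1b, the second AT1 receptor gene of rodents, was at 4.71 to 4.93 in controls and 4.73 to 5.06 after sevoflurane, a log2 difference of 0.08 (95% interval -0.20 to 0.37). Agtr1a and Agtr1b are closely related in sequence, and their signals may not be fully separate.

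Agtr1a, Agtr1b and Agtr2 were dim on the arrays, and Mas1 lay further above the background median. The 23 background control probe sets, which match no rat transcript, had medians of 3.46 to 3.96 on the 6 arrays and highest values of 6.94 to 7.46, and between 75.8% and 83.3% of all probe sets lay under that highest value. Agtr1a, Agtr2 and Mas1 were under it on every array, Agtrap was above it on 5 of 6 arrays, and Agt, Atp6ap2 and Lnpep on all 6. Since most probe sets lay under the highest background value, a place under it does not show that a transcript was absent. The background median was highest on sevoflurane replicate 1, at 3.96, where Agtr1a and Agtr2 also had their highest values. Above that median, Agtr1a was at 1.06, 1.29 and 1.18 in controls and at 1.23, 1.24 and 1.34 after sevoflurane. Its groups were thus closer together. Mas1 was at 3.33, 2.88 and 2.87 in controls and at 2.40, 3.20 and 2.88 after sevoflurane. The groups of Agtrap then overlapped, at 3.66, 3.55 and 3.43 in controls and at 3.57, 3.92 and 3.87 after sevoflurane. Those of Agt also overlapped, at 3.96, 3.76 and 3.84 in controls and at 3.85, 4.25 and 4.09 after sevoflurane. Subtracting the median on the log2 scale shifts every probe set of an array equally, bright or dim, and does not remove background signal. With this median subtracted, an alternative chosen after seeing the data, Agtrap had a log2 difference of 0.24 and Agt of 0.21 (unadjusted p = 0.155 from limma).

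Atp6ap2 was at 10.04, 9.86 and 9.81 on the control replicates and at 9.60, 10.04 and 10.06 on the sevoflurane replicates. Lnpep was at 9.66, 9.36 and 9.45 in controls and at 9.20, 9.59 and 9.62 after sevoflurane. In both, sevoflurane replicate 1 had the lowest value of all arrays, and the other sevoflurane arrays lay near the top of the control range or above it. The log2 difference of Atp6ap2 was 0.00033 (95% interval -0.34 to 0.34, unadjusted p = 0.998 from limma), and that of Lnpep was -0.02 (95% interval -0.36 to 0.32, unadjusted p = 0.887 from limma). The other probe set of Lnpep gave -0.03, with 9.44, 9.21 and 9.24 in controls and 8.95, 9.41 and 9.45 after sevoflurane. Without sevoflurane replicate 1, which had the smallest spread of log2 values of the 6 arrays (SD 1.85, against 1.93 to 2.03 on the others), the differences became 0.15 for Atp6ap2 and 0.11 for Lnpep, and neither passed.

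Of the 6 measured genes other than Agtrap, 1 passed an unadjusted p under 0.05, where 1.61% of all probe sets and 1.32% of all genes did. The same gene, Agt, was the 1 of 6 whose groups did not overlap. Groups did not overlap for 5.47% of all probe sets and 6.27% of all genes. Because the members were chosen with earlier results of these data known, these shares only describe them and cannot show that the set stands out. No probe set of the series passed after adjustment in limma (smallest adjusted p = 0.184), while 1108 of 68842 did at an unadjusted p under 0.05. Leaving out control replicate 1 or 3 brought that count to 624 or 627, and leaving out sevoflurane replicate 1 or 3 brought it to 4138 or 2321.

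**Figure D2:**
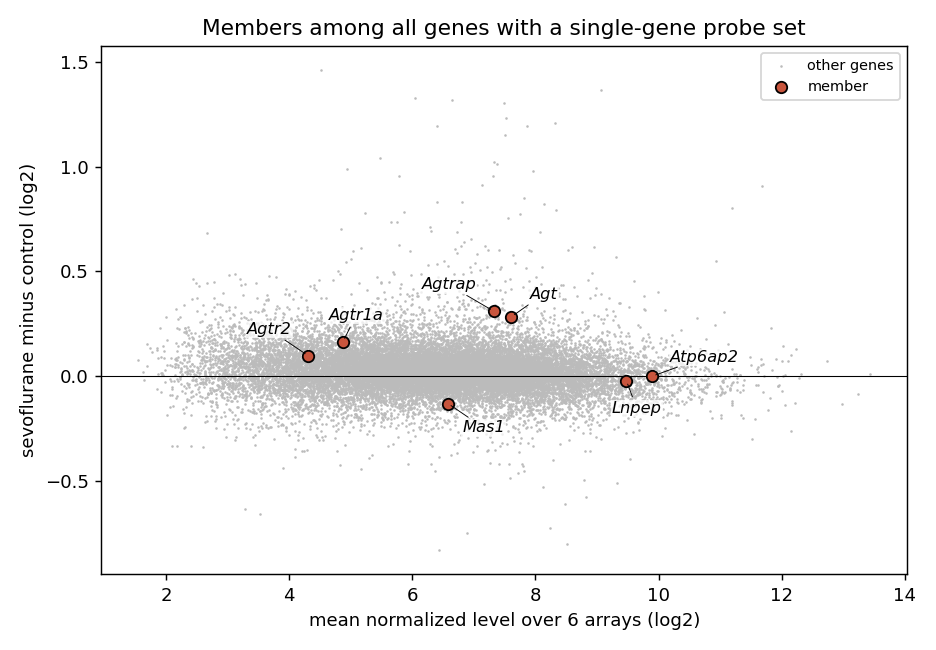
Difference between sevoflurane and control (log2, y axis) against the mean normalized level over the 6 arrays (log2, x axis) for 22093 genes, each a grey point. Agtrap (0.31) and Agt (0.28) lie above the bulk of genes of like level, and Agtr1a (0.17), Agtr2 (0.10), Atp6ap2 (0.00033), Lnpep (-0.02) and Mas1 (-0.13) lie within it.

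A wider set of 71 genes in 8 lists, which covers the pathway and the systems that meet it, was described in the same fit, and 65 of the genes had a probe set of their own. Leaving out Agtrap, 2 of 64 rose at an unadjusted p under 0.05 from limma and none fell, that is 3.12% of them, against 1.1% of all genes higher and 0.222% lower, and 0 passed after adjustment. The lists were chosen with earlier results of these data known, so this share cannot show that the pathway stands out. The median log2 difference was -0.01, and 0.02 over all genes. The 2 genes were Agt and Sgk1, a kinase that aldosterone and glucocorticoids induce. Only 1 gene, Sgk1, passed without control replicate 2, control replicate 3 or sevoflurane replicate 2, and 4 passed without sevoflurane replicate 1, Agt, Sgk1, Ctsd and Rgs2. Without control replicate 1 the genes that passed were Sgk1 and, with a lower level after sevoflurane, Cyp11b3, a gene of the steroid 11-beta-hydroxylase family (log2 difference -0.43, unadjusted p = 0.0441 from limma). The groups did not overlap for 4 of the 64 genes with sevoflurane above control (Agt, Sgk1, Arrb1 and Dpp3) and for 1 with sevoflurane below (Grk2), where the groups of 6.27% of all genes did not overlap.

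Of 7 measured genes that form angiotensins or supply the precursor, Agt rose and 6 did not pass. Among the proteases, Ctsd, an acid protease of lysosomes, was at a log2 difference of 0.09 and Ctsa, a lysosomal carboxypeptidase, at 0.10. None of 10 enzymes that shorten or clear angiotensins passed, and their log2 differences lay between -0.08 and 0.10. The groups did not overlap for Dpp3, a dipeptidyl peptidase, at 7.29 to 7.40 in controls and 7.41 to 7.44 after sevoflurane, with a difference of 0.07 that did not pass. The smallest p among the enzymes was that of Thop1, an endopeptidase that cuts angiotensin I, at 0.08 (95% interval -0.16 to 0.32, unadjusted p = 0.476 from limma). None of 7 receptors passed, with differences from -0.13 to 0.17 and the smallest p for Agtr1a.

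Among 10 partners and signaling proteins of the AT1 receptor other than Agtrap, none passed, and the differences lay between -0.12 and 0.19. Rgs2, which limits signaling through the G protein of this receptor, was at 6.96, 7.02 and 7.17 in controls and at 6.98, 7.23 and 7.50 after sevoflurane. Its groups overlapped, and the log2 difference was 0.19 (95% interval -0.15 to 0.52, unadjusted p = 0.245 from limma). Mtus1, an AT2 receptor-interacting protein, was at -0.06, and Arap1 at -0.03. The groups did not overlap for Arrb1, an arrestin, which was at 8.74, 8.76 and 8.71 in controls and at 8.80, 8.87 and 8.83 after sevoflurane, nor for the receptor kinase Grk2, at 8.67, 8.73 and 8.78 in controls and at 8.61, 8.66 and 8.65 after sevoflurane. Their differences of 0.10 and -0.08 did not pass in limma (unadjusted p of 0.347 and 0.429), while Arrb1 passed by the gene-by-gene test that the methods name.

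**Figure D3:**
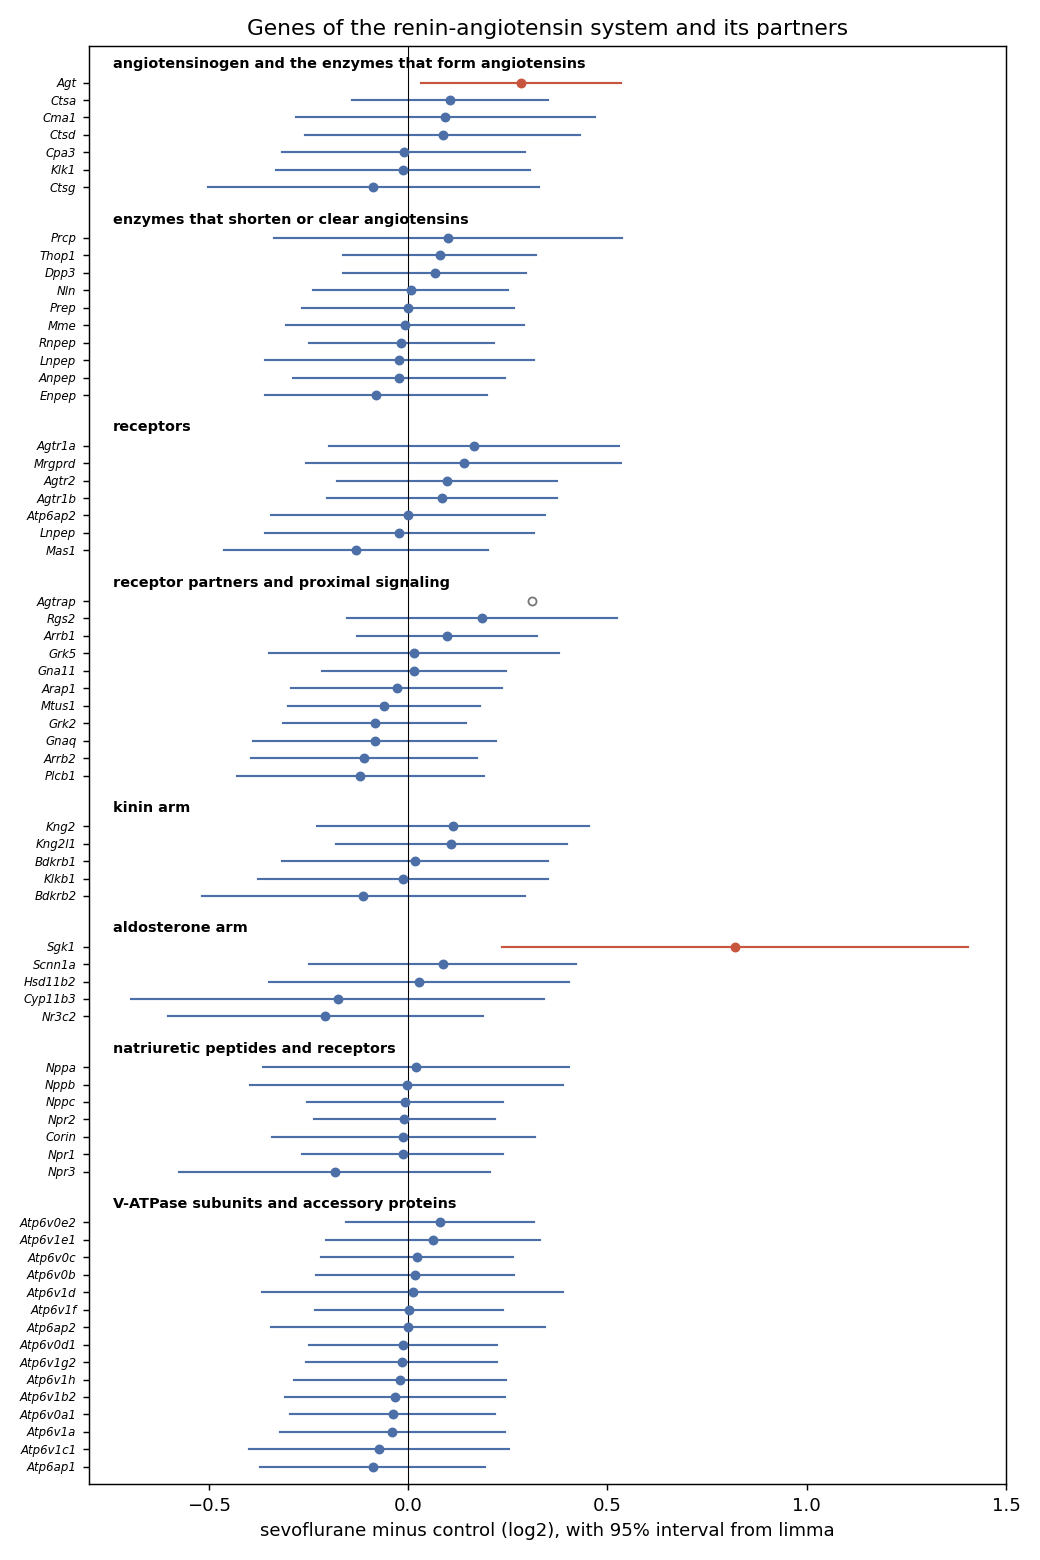
Difference between sevoflurane and control (log2, x axis) for the genes of 8 lists, with 95% intervals from limma. Red marks an unadjusted p under 0.05, blue the genes that did not pass, and the open grey circle is Agtrap, shown without an interval because the study chose it on these arrays. The intervals of Agt (0.03 to 0.54) and Sgk1 (0.24 to 1.41) lie above 0, and the others include it.

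In the aldosterone arm, 1 of 5 measured genes rose. Sgk1 was at 7.89, 7.45 and 7.83 on the control replicates and at 7.92, 8.82 and 8.89 on the sevoflurane replicates. Sevoflurane replicate 1 was only just above the highest control, and the other sevoflurane arrays were well above it. The means were 8.54 ± 0.54 (SD, n = 3) and 7.72 ± 0.24 (SD, n = 3), a log2 difference of 0.82 with a standard error of 0.256 (unadjusted p = 0.0117 and adjusted p of 1 from limma), and it passed in each fit with 1 array left out. It did not pass by the gene-by-gene test that the methods name or with the background median subtracted (unadjusted p = 0.0848 from limma). The mineralocorticoid receptor gene Nr3c2 was at -0.21 (95% interval -0.60 to 0.19) and did not pass. None of 5 genes of the kinin arm, whose peptides the converting enzyme also degrades, passed, with Kng2l1, a kininogen gene, at 0.11 (unadjusted p = 0.416 from limma). None of 7 natriuretic peptide and receptor genes passed either, and Npr3, the clearance receptor, was at -0.18 (unadjusted p = 0.311 from limma).

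None of 15 subunit genes of the vacuolar proton pump, to which Atp6ap2 belongs, passed, and their log2 differences lay between -0.09 and 0.08. Atp6ap1, the other accessory subunit, was at 10.73, 10.55 and 10.59 in controls and at 10.34, 10.61 and 10.65 after sevoflurane, a log2 difference of -0.09 (95% interval -0.37 to 0.19). As for Atp6ap2, its lowest value was that of sevoflurane replicate 1. The smallest p of the list was that of Atp6v0e2, at 0.08 (unadjusted p = 0.456 from limma).

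The tissue label was checked against marker genes. The neuronal markers Snap25 and Camk2a were at 11.85 to 12.01 and 11.84 to 12.07 over the 6 arrays, and the hippocampal field markers Wfs1 and Prox1 at 9.78 to 10.09 and 8.03 to 8.54. None of 5 neuronal and none of 7 hippocampal field markers passed. Among 16 genes that mark the thalamus and habenula, which border the hippocampus, 8 were higher at an unadjusted p under 0.05 from limma and none lower, where 1.1% of all genes were higher and 0.222% lower, and the median log2 difference was 0.50. One of the 8, Prkcd, a protein kinase C (log2 difference 1.23), was picked by the study on these arrays, as Agtrap was, so its value is no independent evidence. Without it, 7 of 15 were higher and none lower, with a median of 0.46. Among the 7 were the glutamate transporter gene Slc17a6 at 1.02 and the transcription factor gene Tcf7l2 at 0.85. Calb2 and Gpr151 did not pass. They were far above the control mean only on sevoflurane replicate 2, at 2.00 and 1.59. Pou4f1, with a log2 difference of 0.12, did not pass either. Relative to the control mean, the mean of the 16 markers was at 0.441, 0.915 and 0.188 on sevoflurane replicates 1, 2 and 3 and at -0.04 to 0.03 on the control arrays. Without Prkcd it was at 0.386, 0.876 and 0.138 on the sevoflurane replicates and at -0.03 to 0.03 on the controls. Agt was at 0.33, 0.37 and 0.15 on the same sevoflurane arrays, and Agtrap at 0.36, 0.34 and 0.23. Replicate 3 was the lowest of the sevoflurane arrays in these marker means and in Agt and Agtrap. The part of these markers in the differences of Agt and Agtrap was not tested.

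Of 8 astrocyte markers, Aldoc, a glycolytic enzyme of astrocytes, rose, with a log2 difference of 0.30 (unadjusted p = 0.0223 from limma). The water channel Aqp4 was at 0.26 (95% interval -0.02 to 0.53), Gfap at 0.10, and the median of the list was 0.08. Of the 8 differences, 7 were positive. The groups did not overlap for 2 of the 8 markers, Aldoc and Aqp4, against 6.27% of all genes. The mean of the astrocyte markers relative to the control mean was at 0.05, 0.10 and 0.20 on sevoflurane replicates 1, 2 and 3, and at -0.08 to 0.08 on the control arrays, so its highest array was replicate 3, on which Agt was lowest of the sevoflurane arrays. The part of astrocytes in the values of Agt was not tested. None of 8 endothelial, 9 mural and 9 microglial markers passed, while the microglial mean stood at 0.653 on sevoflurane replicate 3 and between -0.04 and 0.03 on the other arrays. Of 12 choroid plexus markers, Cldn2, a tight junction protein, passed at 0.24 and a level of 3.78 to 4.17. Ttr, the defining marker, was at 0.01 (95% interval -0.63 to 0.65). It was uneven among arrays, at 8.05, 6.88 and 7.19 in controls and 7.45, 7.59 and 7.11 after sevoflurane. Relative to the control mean, the choroid plexus mean was at 0.11, -0.07 and -0.03 on control replicates 1, 2 and 3. On the sevoflurane replicates it was at 0.18, 0.11 and -0.11.

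**Figure D4:**
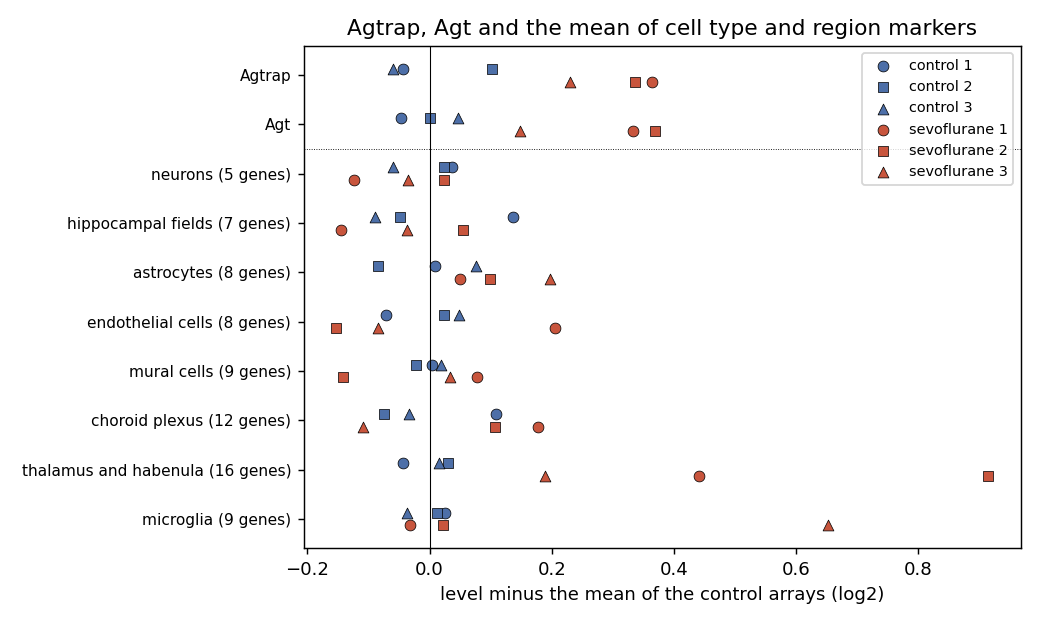
Level minus the mean of the control arrays (log2, x axis) for Agtrap, Agt and the mean of 8 marker lists, with blue symbols for control and red for sevoflurane arrays and 1 symbol shape per replicate number. The thalamus and habenula mean is apart between groups and reaches 0.915 on sevoflurane replicate 2, and the astrocyte mean overlaps between groups.

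The genes whose levels over the 6 arrays were most like those of Agtrap were found by the root mean square difference between log2 values centred on each gene's own mean, among 15082 other genes above the median level. Cntfr, the receptor of ciliary neurotrophic factor, was nearest at 0.034, followed by the integrin subunit Itga9 at 0.040 and the splicing factor Sf3b5 at 0.041. The cochaperone Bag3 was at 0.051 and the tubulin-binding protein Tppp3 at 0.052. Agt ranked 20 at 0.070, whereas Atp6ap2, Lnpep and Mas1 were at 0.257, 0.267 and 0.277, with ranks of 12691, 13188 and 13523. Because Agtrap differed between the groups, genes near it by this measure differ in the same direction by construction. None of the 4 genes that flank Agtrap in the RefSeq gene table, 2 on each side, was named alone by a probe set.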

How the data were processed

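RNA from the hippocampus of 3 rats given sevoflurane and 3 controls was hybridised to 1-colour Clariom D Pico arrays, and groups were taken from the submitters' labels. The values, as deposited by the authors, are normalized and on a log2 scale, 1 for each probe set on an array. Their notes list RMA, MAS5 and Affymetrix Expression Console 1.4.1 without saying what each did, the genome build is not given in the sources used here, and a change common to most transcripts may be lost in such a normalization. Precision is limited by how few arrays there are.

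Of 70580 probe sets, 1738 controls were left out and 68842 were tested without a filter, 23446 of them naming 1 gene, 505 several and 44891 none. Gene symbols are those of the platform annotation, and the 8 probe sets of the members matched RefSeq gene IDs. The test was two-sided, by lmFit and eBayes of limma 3.58.1 under R 4.3.3, with Benjamini-Hochberg adjustment over all probe sets, after the test had been tried on simulated data. Where several probe sets named a gene, the one with the highest mean was used. The members and lists were chosen with earlier results of these data known. Named were all members, in each of the 8 pathway lists every gene with an unadjusted p under 0.05 or else the one with the smallest p, Agtr1b and Atp6ap1, the 5 genes most like Agtrap and its neighbours. Ctsd, Ctsa, Dpp3, Mtus1, Arap1, Arrb1, Grk2, Nr3c2, Cyp11b3 and Bdkrb2 and all markers were named after their values were seen. The alternatives were the methods' one-way ANOVA (a test of each gene by itself), an intensity trend with robust spread, array weights, the replicate number as a block, median centring, quantile normalization, a restriction to brighter probe sets, each array left out, an average over a gene's probe sets and, added after seeing the data, subtraction of the background median. Figures were drawn with matplotlib 3.10.9 and sequences read with pandas 2.3.3 in Python 3.11.15.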

Additional observations from a re-analysis of the deposited data

How the results depend on the processing

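The log2 difference of Agtrap kept its direction in 15 of 15 alternatives, from 0.24 to 0.36, and that of Agt in 15 of 15, from 0.21 to 0.35, but Agt no longer passed in 6 of them. It was 0.21 (unadjusted p = 0.155 from limma) with the background median subtracted, an alternative chosen after seeing the data, and between 0.24 and 0.35 with 1 array left out, 4 of those 6 fits not passing. Agtr1a and Agtr2 kept their direction in 14 of 14 and passed in none. With array weights, however, their differences shrank to 0.014 for Agtr1a and 0.0014 for Agtr2. Lnpep turned to 0.0036 with quantile normalization and to 0.11 with array weights, Mas1 to 0.10 with array weights, and Atp6ap2 to -0.0085 with centring on the median and to -0.069 with the background median subtracted, none of them passing. With 1 array left out Lnpep ranged from -0.10 to 0.11, Mas1 from -0.26 to -0.05, Agtr2 from 0.016 to 0.14 and Atp6ap2 from -0.079 to 0.15. The cause of these turns was not tested. Of the wider genes, 5 passed with array weights (Agt and Sgk1, and with negative log2 differences Cyp11b3 at -0.53, Npr3 at -0.42 and Bdkrb2 at -0.30) and 0 with the background median subtracted, and 1 to 4 with 1 array left out. By the methods' one-way ANOVA Agt and Arrb1 passed (for Arrb1 an unadjusted p = 0.0155). Sgk1 did not pass by that ANOVA (unadjusted p = 0.0747) or with the background median subtracted (unadjusted p = 0.0848 from limma). Over all probe sets, 1735 passed an unadjusted p under 0.05 by that ANOVA, 2096 with quantile normalization, 672 of the brighter probe sets alone (fewer were tested) and 9566 with array weights, which also gave the 23 that passed after adjustment. The array weights were 0.17 for sevoflurane replicate 1, 3.25 for sevoflurane replicate 2 and 3.04 for control replicate 3, so that fit rested unevenly on the arrays. With 1 array left out the count was between 624 and 4138.

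The deviations from the group means of same-numbered arrays correlated across probe sets at -0.59, -0.29 and 0.03. For differently numbered arrays the correlations lay between -0.50 and 0.56. Deviations within a group of 3 depend on each other, so these values cannot show whether the replicate numbers pair the arrays. With the replicate block the log2 difference of Agt was 0.28 (unadjusted p = 0.0977 from limma), 1 of the wider genes passed, Sgk1, and 490 of all probe sets did.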
